A study of Ovis aries with 16 samples.

Results

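Steroid biosynthesis transcripts were examined in perirenal adipose tissue of near-term sheep fetuses. The study's lists of differentially expressed genes by pathway name 5 transcripts for it, and the deposited table holds 35219 transcripts. The 5 were listed because they differed between groups, so they need not be the whole pathway. The lists name 4 transcripts as higher in control males than in control females and 4 as lower in growth-restricted males than in control males. Of these, 3 stand on both lists, ENSOART00020014319, ENSOART00020017450 and ENSOART00020023564. ENSOART00020026658 stands only on the list for control males against control females, and ENSOART00020029702 only on the list for growth-restricted against control males. All 5 were used here, and all 5 passed the filter of 1 TPM (a level corrected for transcript length and set to a fixed total per library) in at least 3 libraries, as did 17291 transcripts in all.

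There were 4 groups of 4 fetuses, with 1 RNAseq library for each fetus. Control male (MC) and control female (FC) fetuses came from ewes kept at a moderate temperature and pair-fed to the heated ewes. Growth-restricted male (MFGR) and growth-restricted female (FFGR) fetuses came from ewes exposed to hyperthermia earlier in pregnancy, which impairs the placenta. All ewes were crossbred Columbia-Rambouillet animals with a single fetus, and no group carried a genetic change.

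Cholesterol is built from acetyl-CoA by way of mevalonate and squalene. In the pathway called steroid biosynthesis, squalene is oxidised by squalene epoxidase (SQLE), closed into lanosterol by lanosterol synthase (LSS), and trimmed and reduced to cholesterol by enzymes such as CYP51A1, MSMO1, NSDHL and DHCR7. Many of these genes are controlled together by the transcription factor SREBP2, which is activated when membranes of the endoplasmic reticulum are low in sterol. Adipocytes hold a large pool of free cholesterol, much of it at the surface of their lipid droplets. The sources used here pair none of the 5 identifiers with a gene symbol, so which enzyme each transcript encodes, its sequence and its position are not reported, and other genes of the pathway were not counted.

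The libraries were those of adipose tissue. The adipocyte transcript of ADIPOQ (adiponectin) lay between 1741 and 3293 TPM in the 16 libraries, and that of UCP1, the uncoupling protein of brown adipocytes, between 1317 and 4430 TPM. TPM sums to 1000000 in each library, so depth is unknown. The 11 mitochondrially encoded transcripts of the study's table took 35.0% to 43.5% of the TPM of an MC library, 29.2% to 37.7% of an MFGR library, 28.8% to 38.8% of an FC library and 25.4% to 36.8% of an FFGR library, and this share lowers all other values of a library. In whole tissue, fewer cells of a type and less RNA per cell cannot be told apart.

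The summed TPM of the 5 transcripts was highest in MC and lowest in MFGR. It was 103, 129, 154 and 114 in the 4 MC fetuses, and 64.5, 50.7, 58.2 and 65.8 in the 4 MFGR fetuses. In FC it was 84.1, 74.8, 91.2 and 85.1, and in FFGR 86.2, 66.0, 99.7 and 99.0. Every MC fetus was above every FC and MFGR fetus, while FFGR spread from just above the MFGR range to just below the MC range. On the log2 scale the difference of the summed TPM was 0.57 for MC against FC, -1.06 for MFGR against MC, 0.050 for FFGR against FC and -0.54 for MFGR against FFGR. The first 2 of these comparisons chose the transcripts, so the sums are a description and carry no test.

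**Figure D1:**
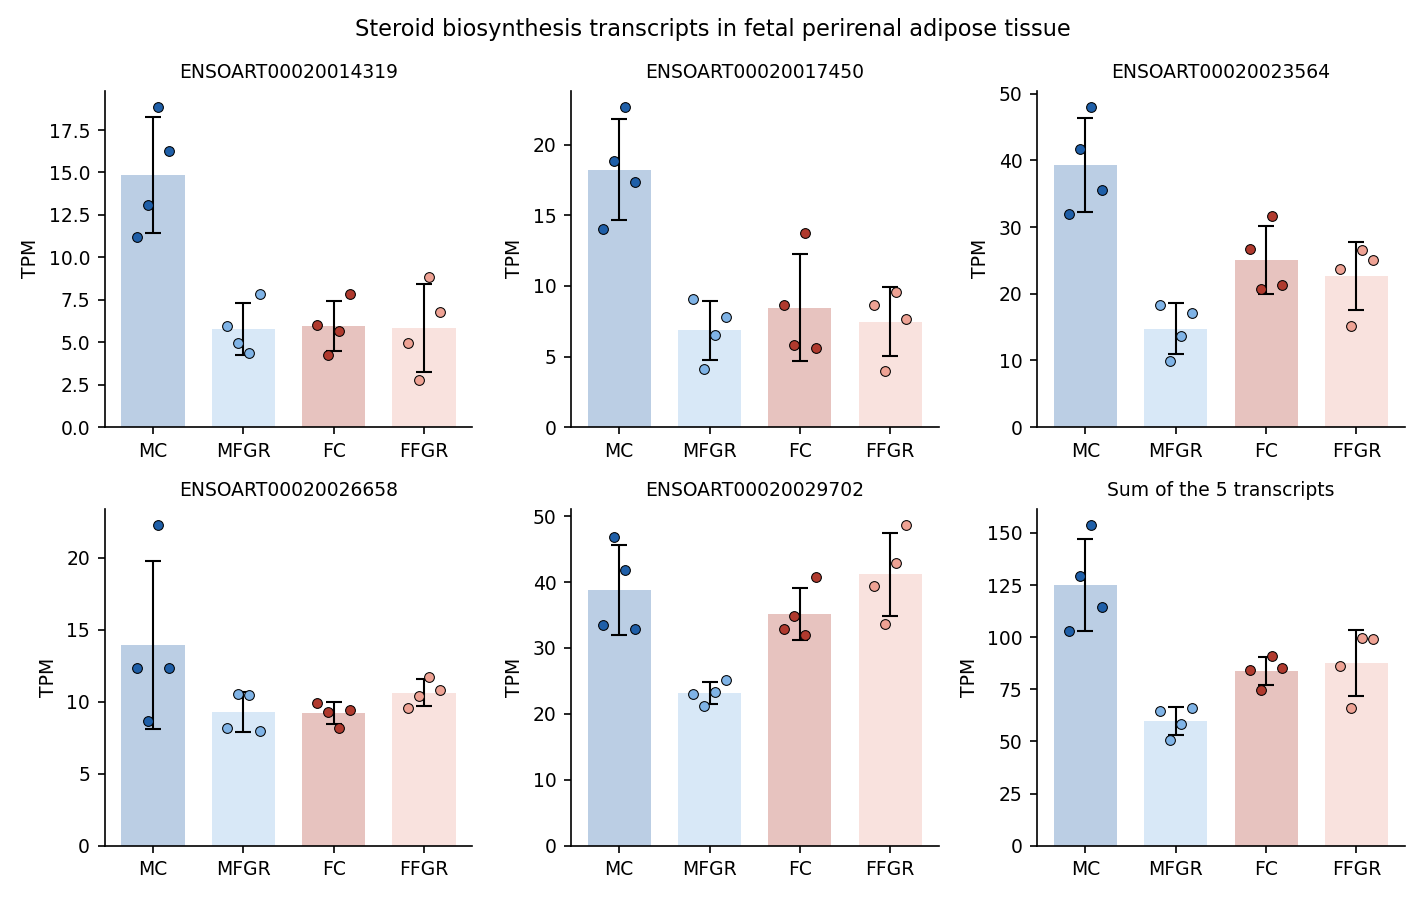
TPM of each steroid biosynthesis transcript and of their sum in MC, MFGR, FC and FFGR. Points are fetuses, bars the mean and error bars the SD (n = 4). For ENSOART00020014319 the MC fetuses (11.2 to 18.9 TPM) lie above all others, whereas for ENSOART00020029702 the MFGR fetuses (21.2 to 25.2 TPM) lie below all others.

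The 5 transcripts did not share a single pattern over the groups. In the 3 transcripts that stand on both lists, the 4 MC libraries were above each of the other 12 libraries. In ENSOART00020029702, the 4 MFGR libraries were below each of the other 12. Among all 17291 transcripts, MC stood above the other 12 libraries in 0.549% and MFGR stood below them in 1.11%. The lists were chosen on MC, FC and MFGR, so these counts describe the choice.

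ENSOART00020014319 was the lowest of the 5 on average over the 16 libraries. It measured 11.2, 13.1, 18.9 and 16.3 TPM in MC. In MFGR it measured 5.94, 4.98, 4.35 and 7.82 TPM. In FC it measured 6.02, 4.25, 5.65 and 7.84 TPM, and in FFGR 4.97, 2.78, 8.87 and 6.81 TPM. MC stood alone. The 3 other groups overlapped, with FFGR the most widely spread, and had means of 5.77 ± 1.51 (MFGR), 5.94 ± 1.48 (FC) and 5.86 ± 2.60 (FFGR) against 14.9 ± 3.40 (MC; SD, n = 4). The mean in MC was 2.50 times that in FC and 2.57 times that in MFGR.

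ENSOART00020017450 had the same order of group means. It measured 14.0, 18.8, 22.7 and 17.4 TPM in MC. In MFGR it measured 9.04, 4.14, 6.51 and 7.77 TPM. In FC it measured 8.63, 5.79, 13.8 and 5.64 TPM, and in FFGR 8.62, 3.97, 9.58 and 7.68 TPM. The third FC fetus, at 13.8 TPM, came close to the lowest MC fetus, and the means of MFGR (6.87 ± 2.09), FC (8.46 ± 3.80) and FFGR (7.46 ± 2.46) lay within each other's spread (SD, n = 4). The mean in MC, 18.2 ± 3.60, was 2.16 times that in FC and 2.66 times that in MFGR.

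ENSOART00020023564 was graded over the groups. It measured 31.9, 41.6, 48.1 and 35.6 TPM in MC. In MFGR it measured 18.4, 9.86, 13.6 and 17.1 TPM. In FC it measured 26.7, 20.7, 31.6 and 21.4 TPM, and in FFGR 23.7, 15.2, 26.6 and 25.0 TPM. The means fell in the order MC (39.3 ± 7.07), FC (25.1 ± 5.11), FFGR (22.6 ± 5.09) and MFGR (14.7 ± 3.82, SD, n = 4). FC and FFGR overlapped, and so did FFGR and MFGR, while all 4 MFGR fetuses were below all 4 FC fetuses.

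ENSOART00020026658 varied least between groups and most within MC. It measured 12.4, 8.69, 22.3 and 12.3 TPM in MC, so the third MC fetus was far above the others. In MFGR it measured 8.19, 10.5, 10.5 and 7.94 TPM. In FC it measured 9.93, 9.26, 8.16 and 9.46 TPM, and in FFGR 9.53, 10.4, 11.7 and 10.8 TPM. MC averaged 13.9 ± 5.84, FFGR 10.6 ± 0.926, MFGR 9.29 ± 1.42 and FC 9.20 ± 0.750 (SD, n = 4), and all 4 groups overlapped. Without the third MC fetus the MC mean was 11.1 ± 2.11 (SD, n = 3), and the log2 difference of MC against FC was 0.24 in place of 0.48. Without the second MC fetus, the lowest of the 4, the mean was 15.7 ± 5.73 (SD, n = 3) and the difference 0.66. The MC values then lay above all FC and MFGR values.

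ENSOART00020029702, the highest of the 5 on average, was low in MFGR only. It measured 33.5, 46.9, 41.9 and 32.9 TPM in MC. In MFGR it measured 22.9, 21.2, 23.3 and 25.2 TPM. In FC it measured 32.9, 34.8, 32.0 and 40.8 TPM, and in FFGR 39.4, 33.7, 42.9 and 48.7 TPM. MC (38.8 ± 6.78), FC (35.1 ± 3.96) and FFGR (41.2 ± 6.27) overlapped, and the highest MFGR fetus was below the lowest fetus of each of them (MFGR mean 23.2 ± 1.61, SD, n = 4). MFGR was also the group with the smallest spread of this transcript, with a coefficient of variation of 6.97%, where the median over all tested transcripts in MFGR was 24.3%. It was below that median in the other groups too, at 17.5% in MC (median 26.5%), 11.3% in FC (24.1%) and 15.2% in FFGR (23.5%). MC and MFGR chose this transcript, and such a choice can favour a small spread, so no conclusion is drawn from the value in MFGR. The medians cover tested transcripts of all levels, and this one stood at percentile 86.7 of the mean level. Neither the choice nor the level was tested as a source of the small spread.

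The effect of sex in control fetuses was the comparison that gave the first of the study's lists. In MC against FC, 3 of the 5 transcripts had no overlap between groups with MC higher, and 7.53% of all tested transcripts did so. With median-of-ratios scaling, quantile normalization or rescaling without mitochondrial transcripts the count was 4, as it was without the second MC fetus. Shares over all transcripts are not given for these settings. The log2 differences were 1.19 for ENSOART00020014319, 1.08 for ENSOART00020017450, 0.63 for ENSOART00020023564, 0.48 for ENSOART00020026658 and 0.13 for ENSOART00020029702. The median of the 5 was 0.63, beside a median of -0.073 over all tested transcripts. The smallest difference was that of ENSOART00020029702, which the first list, made from this same comparison, leaves out. With quantile normalization, which moves the median of all transcripts to 0.10, the difference of ENSOART00020029702 was 0.38.

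The effect of growth restriction in males gave the second list. In MFGR against MC, 4 of the 5 transcripts had no overlap with MFGR lower, and 3.90% of all tested transcripts did so. The log2 differences were -1.23 for ENSOART00020014319, -1.31 for ENSOART00020017450, -1.38 for ENSOART00020023564, -0.71 for ENSOART00020029702 and -0.47 for ENSOART00020026658. Without the third MC fetus the last of these was -0.23, and without the second -0.65. The median of the 5 was -1.23 and that of all tested transcripts -0.087. In TPM as deposited, only ENSOART00020026658, which the second list, made from this same comparison, leaves out, overlapped between the groups. Rescaled without mitochondrial transcripts, or without the second MC fetus, all 5 were without overlap. The share over all transcripts is not given for these settings. Both comparisons share the 4 MC libraries, so a high value in MC enters each of them.

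Marker transcripts of adipocytes and stroma also had different means in MC and MFGR. The 2 transcripts of THY1, a surface protein of preadipocytes and stroma, summed to 36.9 to 81.7 TPM in MC and to 17.4 to 39.2 TPM in MFGR. The fatty acid carrier FABP4 and ADIPOQ, both of mature adipocytes, summed to 3727 to 6200 TPM in MC and to 4962 to 11857 TPM in MFGR. Their means went opposite ways, with FABP4 at 2445 TPM in MC and 6015 in MFGR and ADIPOQ at 2305 and 2015. UCP1 and 2 transcripts of CIDEA, a lipid droplet protein of brown adipocytes, summed to 1416 to 3470 TPM in MC and to 1615 to 2989 TPM in MFGR. The white adipose markers leptin and HOXC9 summed to 22.6 to 51.6 TPM in MC and to 14.8 to 40.5 TPM in MFGR. The study's white adipose markers also include TCF21, which it reported as lower in MFGR than in MC. TCF21 was left out here because its printed identifier is that of a CIDEA transcript. Of the 9 marker transcripts, 0 had an MFGR range below that of MC, and 3.90% of all tested transcripts did. An MFGR range above that of MC was found in 0, a direction whose overall share is not given. For each THY1 transcript 3 of the 4 MFGR fetuses were below every MC fetus, and for FABP4 3 were above. For the CIDEA transcript ENSOART00020036602, 3 were below and 1 above. The study reported FABP4 as higher and the THY1 transcript ENSOART00020024873 as lower in MFGR than in MC. The THY1 transcript ENSOART00020024873 and HOXC9, 2 of the 9, had MC ranges below those of FC, as did 14.9% of all tested transcripts. The other THY1 transcript, ENSOART00020024826, averaged 56.3 TPM in MC and 26.3 in FC, with 3 of the 4 MC fetuses above every FC fetus. No defining marker was at 0. Their part in the differences of the steroid biosynthesis transcripts was not tested.

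**Figure D2:**
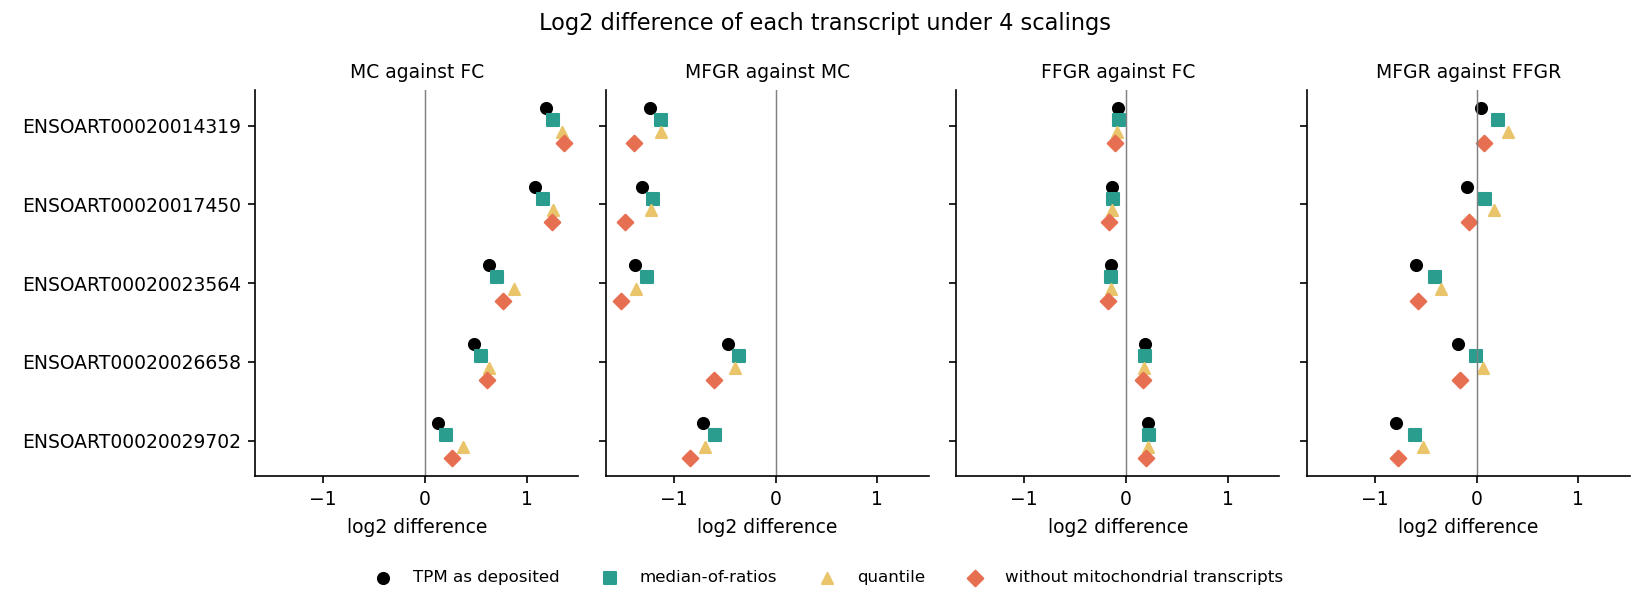
Difference of the mean log2(TPM + 1) between groups for each transcript, in 4 comparisons and under 4 scalings of the libraries (marker shapes). The values of MFGR against MC are below 0 and those of MC against FC above 0 under each scaling, whereas in MFGR against FFGR the differences of ENSOART00020014319, ENSOART00020017450 and ENSOART00020026658 lie between -0.18 and 0.31 and the last 2 change sign with the scaling.

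In females, the ranges of growth-restricted and control fetuses overlapped for each of the 5 transcripts, though 3 of the 4 FFGR fetuses were above every FC fetus for ENSOART00020026658 and 2 for ENSOART00020029702. Whether the effect of growth restriction differs between the sexes was not tested, because MC chose the transcripts. In FFGR against FC, 0 of the 5 transcripts were without overlap in either direction, and 2.83% of all tested transcripts were. This is a count of ranges and not a test. The log2 differences were -0.079 for ENSOART00020014319, -0.14 for ENSOART00020017450, -0.15 for ENSOART00020023564, 0.19 for ENSOART00020026658 and 0.22 for ENSOART00020029702. The sign of the first 3 rests on single libraries. Without the second FFGR fetus they were 0.18, 0.10 and 0.020, without the third FC fetus ENSOART00020017450 was at 0.10, and without the fourth FC fetus ENSOART00020014319 was at 0.046. FC took part in choosing 4 of the 5, and no test is given for those.

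ENSOART00020029702 was placed on its list without any female library, so its difference between FFGR and FC was tested. Its absence from the other list rests on MC and FC, so FC was not wholly outside the choice. The difference was 0.22 ± 0.14 on the log2 scale (SE), with a 95% interval from -0.073 to 0.51, which is 0.951 to 1.42 times the level in FC. It did not pass in limma (adjusted p = 0.921 over 17291 transcripts), in a comparison where 0.0231% of the transcripts passed.

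Between the growth-restricted sexes, the transcripts with the largest differences between control males and females had near-equal mean TPM. In MFGR against FFGR the log2 difference was 0.042 for ENSOART00020014319 and -0.092 for ENSOART00020017450. It was -0.59 for ENSOART00020023564 and -0.79 for ENSOART00020029702. With quantile normalization these 4 differences were 0.31, 0.17, -0.35 and -0.53. Only ENSOART00020029702 had ranges without overlap (1 of 5, with MFGR lower), and 21.0% of all tested transcripts did so. With quantile normalization 0 of 5 did so, and without the second FFGR fetus 2 of 5. The median of all tested transcripts was itself -0.17, and -0.014 with median-of-ratios scaling.

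ENSOART00020026658 was placed on its list by MC and FC alone, so its difference between MFGR and FFGR was tested. Its absence from the other list rests on MFGR and MC, so MFGR was not wholly outside the choice. The difference was -0.18 ± 0.20 (SE), with a 95% interval from -0.61 to 0.25, which is 0.655 to 1.19 times the level in FFGR. It did not pass in limma (adjusted p = 0.544), in a comparison where 26.8% of the transcripts passed. The value was about the median of all transcripts, and with quantile normalization it was 0.065.

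The make-up of the sum differed between groups, and shares within a library do not depend on its scaling. ENSOART00020029702 made up 31.2% ± 4.07 of the sum in control males and 42.2% ± 6.11 in control females, and 38.9% ± 2.65 in MFGR and 47.2% ± 3.56 in FFGR (SD, n = 4). ENSOART00020014319 made up 11.9% ± 1.79 in control males and 7.06% ± 1.56 in control females, and 9.59% ± 1.82 in MFGR and 6.44% ± 1.97 in FFGR. In MC the share of ENSOART00020023564 was almost fixed, between 31.0% and 32.2%, though the sum itself ran from 103 to 154 TPM. In MFGR that share ran from 19.4% to 28.5%.

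**Figure D3:**
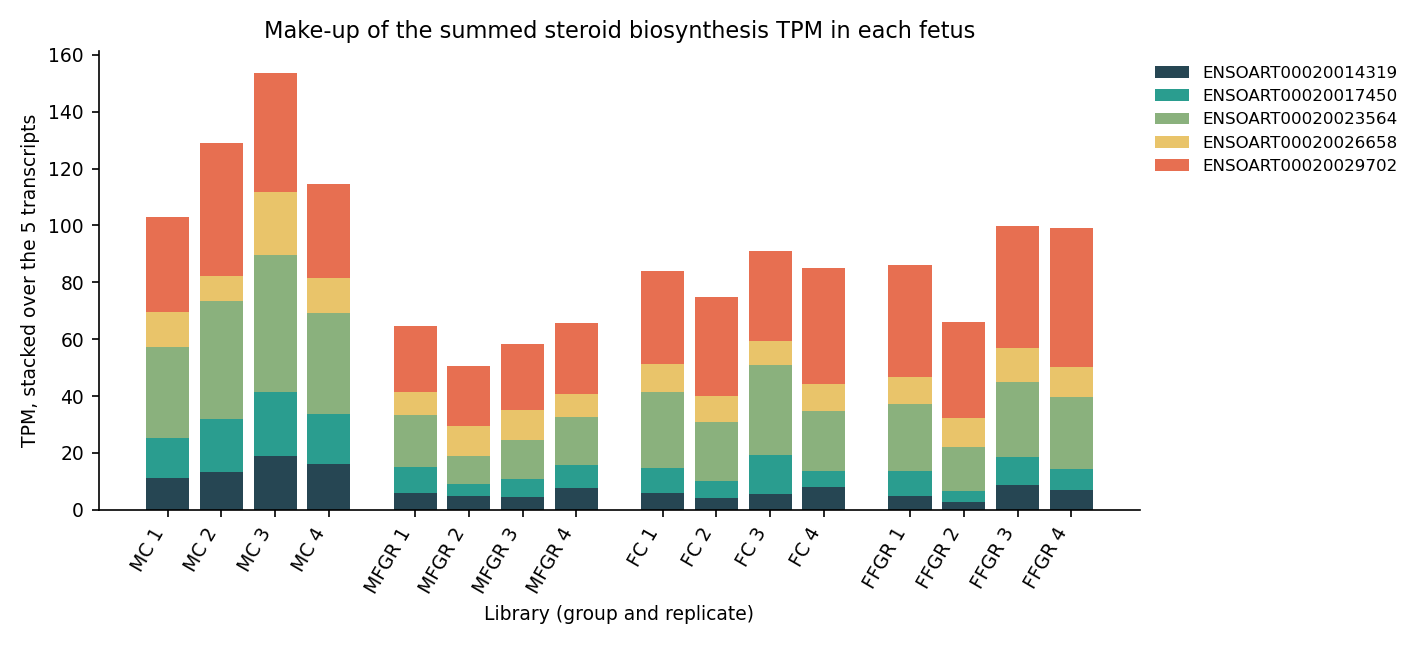
TPM of the 5 steroid biosynthesis transcripts stacked for each of the 16 libraries, by group and replicate. ENSOART00020029702 takes a mean of 31.2% of the sum in MC and 47.2% in FFGR, and the third MC library has the highest sum, 154 TPM. The transcripts were chosen on MC, FC and MFGR, so the shares carry no test.

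Fetuses of a group differed from each other in a shared way for some of the transcripts. The deviation of log2(TPM + 1) from the group mean, which takes out the group differences that chose the transcripts, was correlated over the 16 libraries for each of the 10 pairs. ENSOART00020017450 and ENSOART00020023564 rose and fell together (Pearson r = 0.957, Spearman rho = 0.953; exact permutation within groups, two-sided, p = 1.81e-05 and 3.92e-05, adjusted over 10 pairs 0.000181 and 0.000392). Without the 2 libraries farthest from the median, the second MFGR and the second FFGR fetus, r was 0.925, and with median-of-ratios scaling 0.953. None of the other 9 pairs passed after adjustment.

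ENSOART00020014319 came next with these transcripts. Its r was 0.645 with ENSOART00020023564 (rho 0.635, exact permutation p = 0.0209 and 0.0222, adjusted 0.105 and 0.111), 0.567 with ENSOART00020029702 and 0.548 with ENSOART00020017450. Without its 2 farthest libraries, the second and the third FFGR fetus, these were 0.461, 0.440 and 0.286. ENSOART00020026658 passed with none of the others, with r between -0.036 and 0.23, and between -0.38 and 0.043 with median-of-ratios scaling. All 5 values of a library share its scaling to a fixed total. In the first MC and the second FFGR fetus all 5 transcripts were below the group mean, and in the third MC, the third FFGR and the fourth FFGR fetus all 5 were above it.

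The ratio of the correlated pair had higher means in both male groups than in both female groups, and like means in control and growth-restricted fetuses of each sex. It was chosen after its values were seen and carries no test. ENSOART00020017450 was at 46.3% ± 2.21 of ENSOART00020023564 in MC and 46.1% ± 3.19 in MFGR. It was at 32.6% ± 7.74 in FC and 32.3% ± 4.91 in FFGR (SD, n = 4). The 8 male libraries lay between 42.0% and 49.3% and the 8 female libraries between 26.1% and 43.6%, where only the third FC fetus reached the male range. Salmon divides reads among transcripts of like sequence, and whether the 2 transcripts belong to 1 gene was not analysed here.

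**Figure D4:**
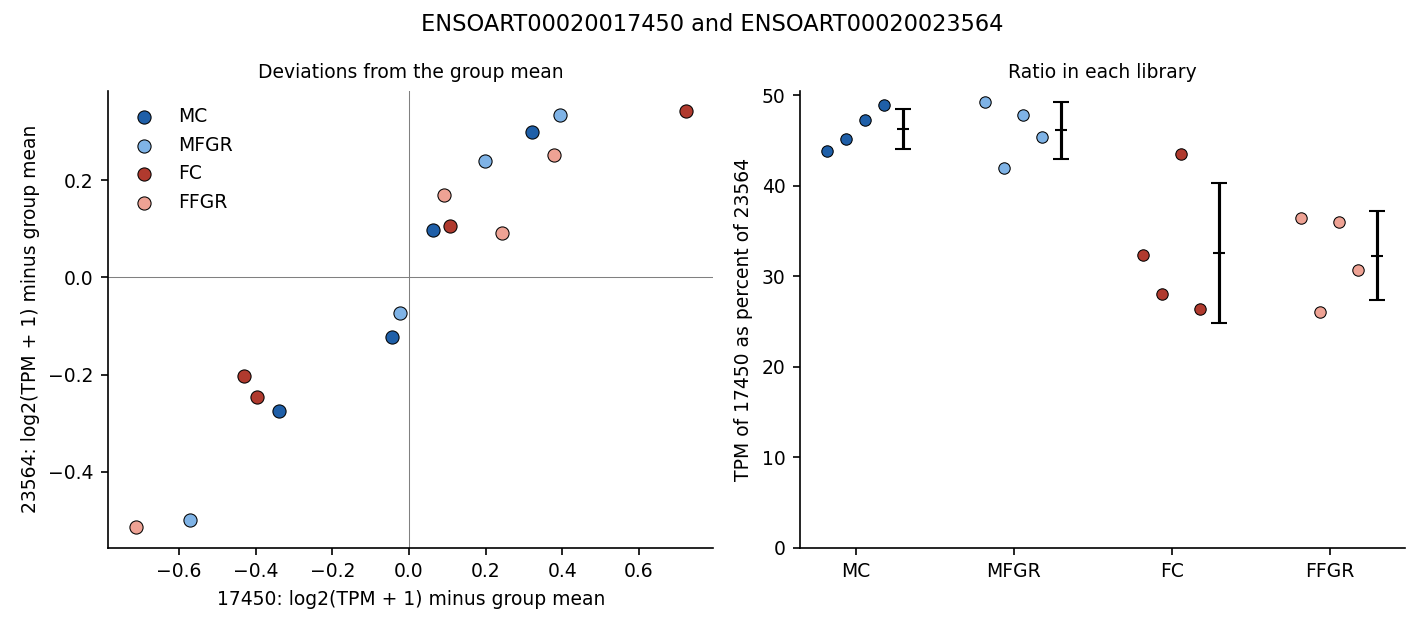
Left, deviation of log2(TPM + 1) from the group mean for ENSOART00020017450 and ENSOART00020023564 in 16 libraries (r = 0.957). Right, TPM of the first as a percent of the second in each library, with mean and SD (n = 4), which is near 46% in both male groups and near 32% in both female groups.

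The transcripts other than the 5 whose deviations were most like those of the sum were ENSOART00020021434 (r = 0.914 over 16 libraries) and ENSOART00020005324 (r = 0.893), of 17286 compared. Neither has a symbol in the sources used here. The group means of ENSOART00020021434 did not follow those of the sum, at 70.3 TPM (MC), 63.1 (MFGR), 110 (FC) and 87.4 (FFGR). Nor did those of ENSOART00020005324, at 91.0 TPM (MC), 86.6 (MFGR), 453 (FC) and 340 (FFGR). The 5 transcripts, which are part of the sum, had r with it from 0.211 (ENSOART00020026658) to 0.910 (ENSOART00020023564). Both named transcripts are the highest of many values and carry no test.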

How the data were processed

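RNA from perirenal adipose tissue of 16 sheep fetuses was sequenced. Per the labels and the study's methods, the authors used FastQC 0.11.9 to judge the reads, dropped those under a quality minimum and ran Salmon on Ensembl transcripts of Oar_rambouillet_v1.0. They deposited 1 table of TPM values, with no counts. The 5 members are the identifiers printed for steroid biosynthesis in the study's pathway tables, whose p columns were not used. Members and lists were chosen with earlier results of these data known.

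Values were taken as log2(TPM + 1), so differences of low transcripts are understated. Transcripts that reached 1 TPM in 3 or more libraries (17291) were fitted in limma 3.58.1 (R 4.3.3) with 1 mean for each group, a trended prior variance and Benjamini-Hochberg adjustment, with a threshold of 0.05. A member was tested only between groups that did not place it on a list, though a tested group took part in leaving it off the other list. The replicates are separate fetuses. Pairs of members were tested by exact permutation within groups. The fits were tested on simulated data. Named transcripts are the 5 members, 9 marker transcripts and the 2 transcripts most like the sum. Alternatives were other pseudocounts, filters, scalings, variance models and library weights, the replicate block, and leaving out libraries.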

Additional observations from a re-analysis of the deposited data

Results flagged for a closer look

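The mean of ENSOART00020026658 was lower in MFGR than in MC and higher in FFGR than in FC, with overlapping ranges in both comparisons. The transcript was chosen for a higher level in MC than in FC. That choice by itself favours opposite signs in the sexes, so the signs carry no conclusion. All 4 MFGR fetuses were below the MC mean (log2 difference -0.47) and all 4 FFGR fetuses above the FC mean (0.19), a difference of -0.66 on the log2 scale that was not tested, since MC and FC chose this transcript. Without the third MC fetus, which had 22.3 TPM, the difference was -0.42. Without the second MC fetus, which had 8.69 TPM, the difference was -0.84. No single fetus stood apart from its group by Dixon's criterion in the 24 groups of values examined (highest ratio of gap to range 0.745, critical value 0.829).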

How the results depend on the processing

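The difference of ENSOART00020029702 in FFGR against FC kept its direction and failed the threshold in all 27 alternatives (0.13 to 0.31, p or adjusted p 0.171 to 1). That of ENSOART00020026658 in MFGR against FFGR failed the threshold in all 26 (p or adjusted p 0.2 to 0.987) and kept its direction in 25. With quantile normalization it was 0.0645, and leaving out 1 library gave -0.24 to -0.12. It was not fitted with the filter at 20 TPM, which this transcript does not reach in 3 libraries. The log2 difference of the sum was 0.79 in MC against FC and -0.26 in MFGR against FFGR with quantile normalization. Quantile normalization left 0 transcripts without overlap in MFGR against FFGR. Leaving out 1 library gave 1 to 2 lower there and 0 to 1 higher in FFGR against FC, the latter without the first FC or the first FFGR fetus. Over all alternatives the count was 3 to 4 higher in MC against FC and 4 to 5 lower in MFGR against MC. Without the 2 farthest libraries, r was 0.0470 for ENSOART00020017450 with ENSOART00020026658, -0.15 with ENSOART00020029702, 0.12 for ENSOART00020023564 with ENSOART00020026658 and 0.0471 for ENSOART00020026658 with ENSOART00020029702. Of 240 values of single transcripts, 12 changed sign. The labels state no pairing of fetuses by replicate number. Same-numbered fetuses deviated with r from -0.083 to 0.17, and 15 of 48 comparisons were closest to their own number. These values were not tested and cannot exclude a pairing or a shared batch. With a replicate block the differences stayed at 0.22 for ENSOART00020029702 (limma, adjusted p = 0.925) and -0.18 for ENSOART00020026658 (adjusted p = 0.542), and the block changed no call. Without counts, the depth behind low TPM values is unknown.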
